A study of Mus musculus with 104 samples.

Results

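The 10 genes described here encode 9 chaperones and folding enzymes of the endoplasmic reticulum (ER) and Xbp1, a transcription factor of the unfolded protein response. They were chosen by name: Hspa5, Hyou1, Hsp90b1, Calr, Canx, Pdia3, P4hb, Pdia4, Pdia6 and Xbp1. All 10 were present among 45808 gene rows of the count table. All 10 also belonged to the 9113 genes counted as expressed, meaning that their level over all libraries was 10 CPM or more (CPM, counts per gene scaled to a common library total) and that 25% or more of either group's libraries had a count.

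The contents of single neurons of the mouse substantia nigra, labelled as dopaminergic neurons, were drawn into patch pipettes and amplified with Smart-seq2, which gave 104 libraries of 1 neuron each. Of these, 38 are titled experiment and 66 control. The design text describes 1 procedure, with tribromoethanol anaesthesia, slices kept in oxygenated ACSF and the picking of neurons that carried α-Syn-6H-EGFP inclusions, a fluorescent α-synuclein reporter. Which neurons served as control, and the strain, genotype and age of the mice in each group, are not stated in the labels used. The labels do not tie libraries to animals. Each group was therefore treated as 1 sample, and every difference below describes these libraries without a p-value.

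Proteins bound for the cell surface, the secretory pathway or the lysosome fold in the ER. BiP, the product of Hspa5, holds unfolded chains, calnexin and calreticulin hold chains that carry sugars, and protein disulfide isomerases form and reshuffle disulfide bonds. When unfolded protein builds up, the sensors IRE1, ATF6 and PERK respond. IRE1 splices Xbp1 mRNA, and spliced XBP1 and cleaved ATF6 turn on chaperone genes, in part through the ER stress response element in their promoters. PERK slows translation and favours that of ATF4, which turns on genes of amino acid supply and Ddit3 (CHOP). In dopaminergic neurons this response has been studied in models of Parkinson disease, where α-synuclein accumulates.

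The elements below are shown because the promoters of these chaperones share them. The ER stress response element was searched as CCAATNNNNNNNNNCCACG, on both strands, in the 250 bases upstream of each start site in RefSeq's promoters of GRCm38.p6. It was found in 37 of 32851 promoters (0.113%) and in those of 5 of the 9 genes with an entry, Hspa5, Calr, Hsp90b1, Canx and Pdia6. Hsp90b1 carried it at 2 places. Each line gives 29 bases read from CCAAT to CCACG, with these blocks in capitals.
Hspa5, chr2:34772020-34772048, same strand as the gene, 46 bases from the start site: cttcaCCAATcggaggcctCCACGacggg
Calr, chr8:84847070-84847098, opposite strand, 143 bases: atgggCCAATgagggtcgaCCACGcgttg
Hsp90b1, chr10:86705633-86705661, same strand, 193 bases: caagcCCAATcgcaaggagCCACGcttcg
Hsp90b1, chr10:86705528-86705556, opposite strand, 88 bases: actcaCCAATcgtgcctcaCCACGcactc
Canx, chr11:50325795-50325823, same strand, 126 bases: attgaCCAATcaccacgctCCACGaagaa
Pdia6, chr12:17266486-17266514, same strand, 79 bases: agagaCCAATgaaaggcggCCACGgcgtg
Both elements of Hsp90b1 lie in the following stretch of its promoter, chr10:86705510-86705694 on the minus strand, 5′ to 3′, outside the gene's GENCODE exons. Capitals mark CCAAT and CCACG or, for the element on the opposite strand, CGTGG and ATTGG.
Hsp90b1 promoter: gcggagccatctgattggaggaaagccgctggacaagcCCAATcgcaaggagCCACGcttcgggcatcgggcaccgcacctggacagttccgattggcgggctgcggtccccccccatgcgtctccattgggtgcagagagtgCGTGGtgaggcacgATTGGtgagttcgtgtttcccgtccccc

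The promoters of Pdia3, Pdia4, P4hb and Xbp1 held no such letters in these windows, and Hyou1 was not matched. The Hspa5 window lies within the exon that GENCODE M21 places at the 5′ end of that gene, while the other 5 windows lie outside GENCODE exons. The Calr window also lies upstream of 1700122E12Rik. A related element, ATTGGNCCACG, was in 0 of the 9 promoters and in 0.0304% of all promoters. The letters TGACGTGG, bound by XBP1 and ATF6 in other settings, were likewise in 0 of the 9 and in 0.563% of all. No binding was measured, so these matches describe sequence alone.

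Library totals, as counts assigned to genes, ran from 116567 to 3094036 (median 960027) in experiment and from 153770 to 2577694 (median 1039850) in control libraries. Genes with a count had a median of 7354 in experiment and 8548 in control libraries. Th, which encodes the enzyme that sets the rate of dopamine synthesis, was detected in all 38 and all 66 libraries, but 5 experiment and 2 control libraries had a summed level of 11 dopaminergic markers under 25% of the overall median. Glial markers (astrocyte, microglia, oligodendrocyte) summed to a median of 2532 CPM in experiment and 1679 CPM in control libraries. All 13 expressed astrocyte markers of 15 were higher in experiment by both weightings described below, and 11 of 15 had a median of 0 in each group. Over all expressed genes, 45.8% were lower by both. Of 8270 genes that met the minimum of level and detection in each group, 3469 were higher by both and 3640 lower. Sox9 and Ednrb, among the 13, counted as expressed through experiment libraries alone. Markers of endothelial and mural cells (11 genes) and of blood (6 genes) had a median of 0 in both groups. From title numbers, letter case and record order the libraries fall into title set 1 (21 experiment, 31 control) and title set 2 (17 and 35), which the labels do not call batches. Title set 1 was divided at title number 10 into block 1 (7 and 10) and block 2 (14 and 21). Control libraries 38 and 53 resembled each other far more than others did, with Pearson r = 0.82 of log2(CPM + 1) against 0.66 for the next pair and a median of 0.45. They shared 36.8% of the rare genes found in either, against a median of 4.19%, and without control library 53 the median log2 ratio of the 10 genes was -0.31, as with it.

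Levels were compared in 2 ways: as pooled CPM, the summed counts of a group over its summed total, and as the mean of library CPM, which weights neurons equally. As a rule of size, a gene had to differ by 1.5-fold or more by both. Of the 10 genes, 0 were higher and 0 were lower by this rule, where 7.77% of all expressed genes were higher and 11% lower. At any size, 9 of the 10 were lower in experiment libraries by both weightings, against 45.8% of all expressed genes, the exception being P4hb. The median library was lower for 8 of 10, all but Hsp90b1 and Xbp1, against 62.1% of all expressed genes. Hyou1, Hsp90b1, Calr, Canx, Pdia3, Pdia4 and Pdia6, or 7 of 10, were also lower within each title set, against 29.2% of all expressed genes. Their median log2 ratio of pooled CPM was -0.31 (-0.49 to -0.06 by order statistics over the 10 genes), beside -0.03 for all expressed genes. With equal weights the medians were -0.36 and -0.02. Markers of cell identity differed between the groups too. The 11 dopaminergic markers had a median log2 ratio of -0.32, 9 of 11 were lower by both weightings, and their summed level was 937 to 29325 CPM in experiment and 2213 to 35009 CPM in control libraries, with medians of 18460 and 23570 CPM. Of 7 GABAergic markers 4 were expressed, all 4 higher by both weightings with a median of 1.64, and their summed level was 0 to 1750 CPM and 0 to 1038 CPM, with medians of 140 and 51.1 CPM. Gata3, 1 of the 4, counted as expressed through experiment libraries alone. Of 8270 genes that met the minimum of level and detection in each group, 3469 were higher by both weightings. The part of these markers in the levels of the 10 genes was not tested. For all 10 genes the ranges from lower to upper quartile of the 2 groups overlapped.

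**Figure D1:**
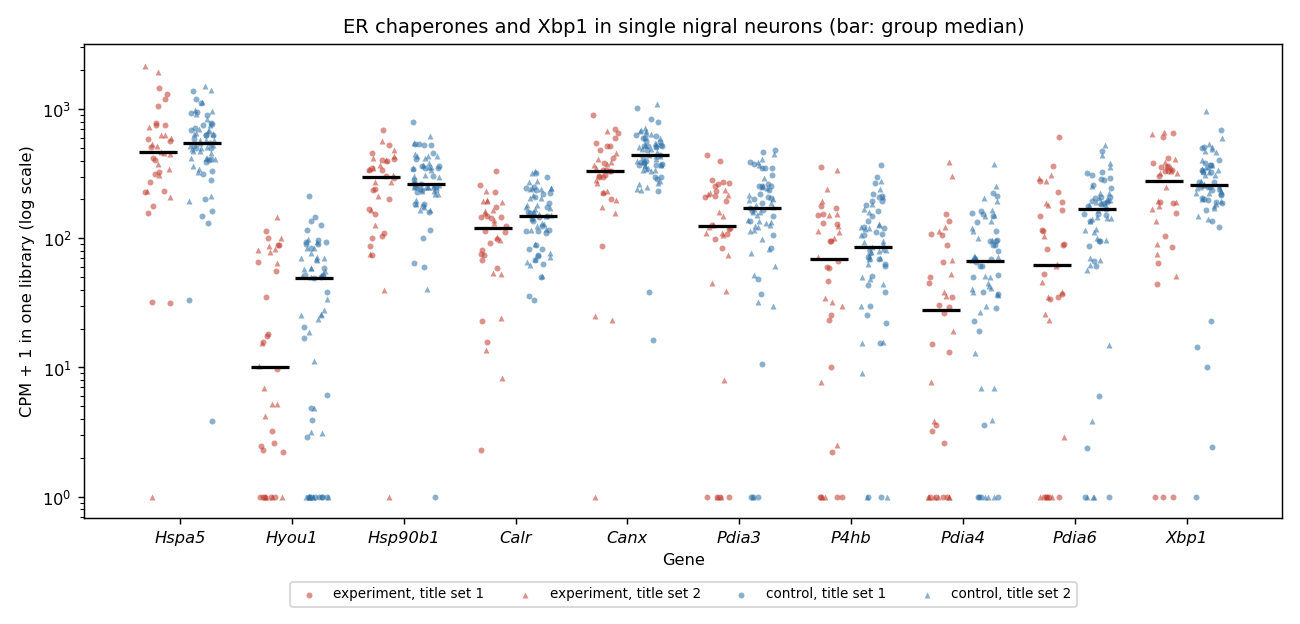
CPM + 1 on a log scale for each of the 10 genes in each library, with experiment in red and control in blue, circles for title set 1, triangles for title set 2 and bars at group medians. The groups overlap for every gene, Hspa5 stands highest and Hyou1 lowest, and libraries at 0 CPM lie at 1 on this axis.

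Hspa5 (chr2:34771970-34777547), which encodes BiP, the ER's HSP70 that holds unfolded chains, had the highest level of the 10. It ranged from 0 to 2173 CPM with a median of 462 in experiment libraries and from 2.88 to 1519 CPM with a median of 547 in control libraries. The 2 groups overlapped over nearly all of this range, and the highest value of all was in an experiment library, 55. Pooled CPM was 588 and 612, a ratio of 0.961 (0.946 to 0.976), and 23 of 38 experiment libraries lay below the control median. Here and below, the range after a ratio is the exact binomial 95% interval of the summed counts. It covers counting error only, without molecular identifiers, and is far narrower than the spread between neurons. Among all expressed genes, 48.4% had a lower ratio than Hspa5, so it stood near the middle.

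Hyou1 (chr9:44379490-44392369), the large HSP70 relative that exchanges the nucleotide on BiP, was the scarcest. Its range was 0 to 144 CPM with a median of 9 in experiment libraries and 0 to 213 CPM with a median of 48.4 in control libraries. Both groups held many libraries at 0, 9 of 38 and 14 of 66, and the medians differed more than the pooled values. Those were 34.3 and 45.4 CPM, a ratio of 0.754 (0.708 to 0.803). After each library was thinned to 400000 counts, which left 34 experiment and 60 control libraries, Hyou1 had a count in 24 (70.6%) and 49 (81.7%).

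Hsp90b1 (chr10:86690209-86705509), which encodes GRP94, the HSP90 of the ER, gave the 2 measures of the centre opposite signs. Experiment libraries ranged from 0 to 691 CPM with a median of 299, and control libraries from 0 to 796 CPM with a median of 260. So the median was higher in experiment libraries, and 16 of 38 lay below the control median. Pooled CPM was lower, 268 against 296, a ratio of 0.906 (0.885 to 0.927). In GENCODE its exons overlap those of the antisense pseudogene 1810014B01Rik over 415 bases, and the strand setting of the counting is not given. That gene held 123 counts over all libraries, against 22013 for Hsp90b1 in control libraries alone.

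Calr and Canx encode calreticulin and calnexin, the soluble and the membrane-bound lectin that hold glycoproteins until they fold. Calr (chr8:84841850-84846934) had a count in every library. Its level was 1.30 to 332 CPM with a median of 118 in experiment libraries and 32.5 to 332 CPM with a median of 149 in control libraries. The upper ends coincided, while the lower end reached further down among experiment libraries, 26 of 38 of which lay below the control median. Pooled CPM was 111 against 156, a ratio of 0.714 (0.690 to 0.739), and both title sets had much the same log2 ratio, -0.40 in the first and -0.39 in the other. A processed pseudogene of Calr is annotated on chromosome 2, and how reads that fit both were counted is not given.

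Canx (chr11:50293961-50325673) was lower in most experiment libraries. Experiment libraries ranged from 0 to 906 CPM with a median of 333, and control libraries from 15.4 to 1091 CPM with a median of 439. Of the 38 experiment libraries, 28 lay below the control median and 22 below the control lower quartile. The pooled ratio was 0.757 (0.743 to 0.772) and the equally weighted ratio 0.758, so it did not turn on a few deep libraries. It was not even across title sets, where the log2 ratio was -0.17 (set 1) and -0.78 (set 2).

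Pdia3 (chr2:121413775-121438687) encodes ERp57, the disulfide isomerase that works with both lectins. Its level was 0 to 438 CPM with a median of 124 in experiment libraries and 0 to 477 CPM with a median of 169 in control libraries. The groups overlapped throughout, and 23 of 38 experiment libraries lay below the control median. The pooled ratio was 0.735 (0.712 to 0.758), and its log2 ratio was -0.31 within title set 1 but -0.71 within title set 2. Pdia3 shared with Canx the larger difference in set 2, and no test of that difference between sets could be made with 1 sample a group.

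P4hb (chr11:120560298-120573253), protein disulfide isomerase itself and a subunit of collagen prolyl 4-hydroxylase, was the exception to the lower pooled levels. Experiment libraries ranged from 0 to 354 CPM with a median of 67.8, and control libraries from 0 to 366 CPM with a median of 83.9. Nearly equal numbers of experiment libraries stood below (20) and above (18) the control median. The pooled ratio was 1.02 (0.980 to 1.06) and the equally weighted ratio 0.857, so the sign depended on the weighting.

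Pdia4 (chr6:47796141-47813430), which encodes ERp72, an isomerase found in complexes with BiP, was at or near 0 in many experiment libraries. It ranged from 0 to 390 CPM with a median of 26.8 there and from 0 to 374 CPM with a median of 65.4 in control libraries. The ranges ended at the same height, but 28 of 38 experiment libraries lay below the control median. Its pooled ratio was 0.860 (0.822 to 0.899), and with equal weights 0.674. Experiment library 46 held 21.5% of the group's counts, and without it the ratios were 0.702 and 0.560. Control library 40 held 15.1% of the control counts.

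Pdia6 (chr12:17266545-17284770), which encodes P5, an isomerase that acts on BiP clients and on IRE1, had the lowest pooled ratio of the 10. Experiment libraries ranged from 0 to 606 CPM with a median of 60.9, and control libraries from 0 to 527 CPM with a median of 167. The experiment libraries were spread over the whole control range, with 28 of 38 below the control median and 23 below the control lower quartile. The pooled ratio was 0.682 (0.659 to 0.706) and the equally weighted ratio 0.664. Both title sets gave nearly this value, -0.56 and -0.58 as log2 ratios, and 16.7% of all expressed genes had a lower pooled ratio.

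Xbp1 (chr11:5520659-5525893) differed little between the groups. Its level was 0 to 663 CPM with a median of 275 in experiment libraries and 0 to 967 CPM with a median of 256 in control libraries. Equal numbers of experiment libraries, 19 and 19, lay below and above the control median. Pooled CPM was 269 against 293, a ratio of 0.920 (0.899 to 0.941), and the log2 ratio changed sign between title set 1 (0.04) and title set 2 (-0.14). The spliced mRNA, which encodes the active factor, and the unspliced one fall into 1 count here and cannot be told apart.

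Levels of different genes were compared per kilobase of the principal transcript, as pooled CPM per kb. In control libraries the order was Hspa5 (167), Xbp1 (138), Canx (110), Hsp90b1 (105), Pdia6 (74.7), Calr (71.4), Pdia3 (68), P4hb (33.9), Pdia4 (33.8) and Hyou1 (10.1). In experiment libraries Hspa5 (160) and Xbp1 (127) again led, Hsp90b1 (95.0) stood above Canx (83.6), and Hyou1 (7.64) was again last. Between Hyou1 and Canx stood Calr (51), Pdia6 (51), Pdia3 (49.98), P4hb (34.6) and Pdia4 (29.1). For 9 of 9 neighbouring pairs in this order, in either group, the ranges from lower to upper quartile over libraries overlapped.

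Within a neuron, Hspa5 made up a median of 23.9% of the summed CPM of the 10 genes in experiment and 24.01% in control libraries. Canx followed with 18.3% and 18.8%, and Hsp90b1 with 14.96% and 12.55%. The shares of Pdia6 (3.45% and 6.30%) and Pdia4 (1.29% and 2.82%) were lower in experiment libraries. The summed level of the 10 genes ranged from 647 to 4466 CPM with a median of 1905 in experiment libraries and from 810 to 4257 CPM with a median of 2334 in control libraries. Of 38 experiment libraries, 27 lay below the control median. The complete set of 10 was detected in 15 of 38 experiment against 45 of 66 control libraries, and at equal depth in 11 of 34 (32.4%) against 42 of 60 (70%). Experiment libraries had fewer genes with a count in general, at a median of 7354 against 8548 before thinning. No such share was computed for other sets of 10 genes, so this contrast cannot be called particular to these genes.

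**Figure D2:**
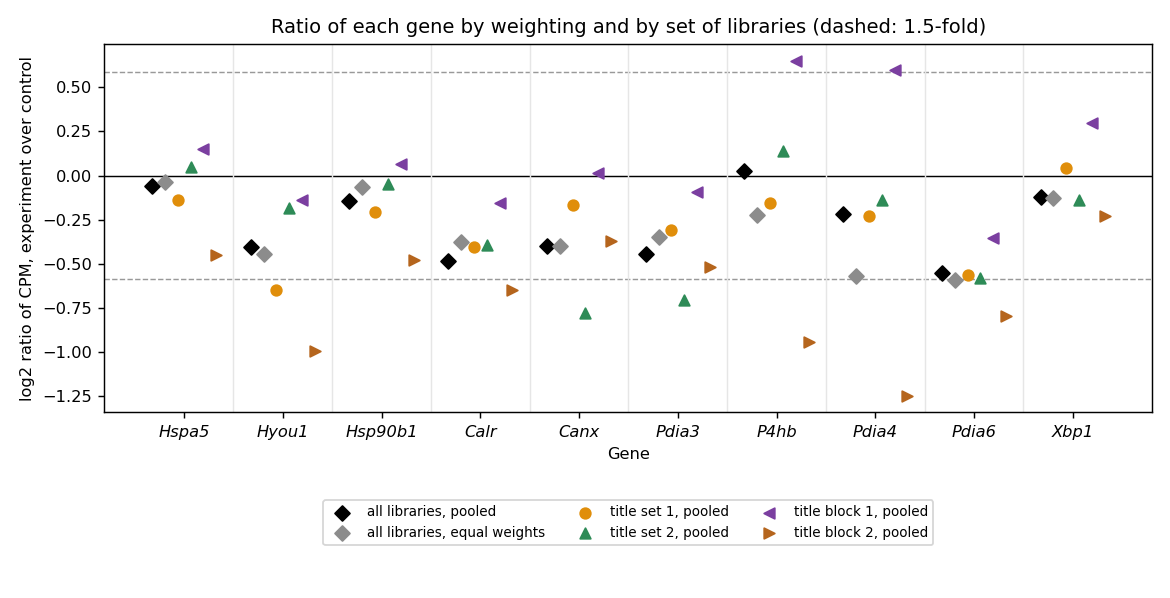
Log2 ratio of CPM, experiment over control, for each gene over all libraries (black pooled, grey equal weights) and within title sets 1 and 2 and title blocks 1 and 2, with dashed lines at 1.5-fold. Block 2 lies below 0 for all 10 genes, while in block 1 P4hb and Pdia4 lie above the upper dashed line.

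The lower levels were not shared by every subset of libraries. In title block 2 (14 experiment, 21 control) all 10 ratios were below 1, from 0.422 for Pdia4 and 0.502 for Hyou1 to 0.852 for Xbp1, with a median log2 ratio of -0.58 against -0.11 for all expressed genes. In title block 1 (7 and 10) the median was 0.04 against -0.12, and only 4 of the 10 were below 0. There P4hb stood at 1.57-fold and Pdia4 at 1.51-fold, Xbp1 at 1.23-fold and Hspa5 at 1.11-fold, while Pdia6 was lower at 0.783. The pooled log2 ratios of Hspa5 and P4hb had opposite signs in title sets 1 and 2, at -0.14 and 0.05 for Hspa5 and -0.15 and 0.14 for P4hb. Title set 1 as a whole gave -0.22 (all expressed genes -0.10) and title set 2 gave -0.16 (-0.03). Without the 25% of libraries highest in glial markers, the median log2 ratio of the 10 genes was -0.43, and without the 7 libraries low in dopaminergic markers it was -0.26.

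From neuron to neuron, Hspa5 varied more than most genes of its level. Its coefficient of variation of CPM was 0.833 in experiment libraries, above that of 93.6% of 236 genes within 1.5-fold of its level, and 0.532 in control libraries, above that of 81.0% of 221 genes. Calr was the steadiest for its level, at 0.627 and 0.483, with 4.85% and 4.40% of like genes lower. Xbp1 was ordinary in this respect, at 0.695 and 0.567, with 55.2% and 54.4% of like genes lower. In experiment libraries Pdia4 had the largest value of the 10, 1.55, and in control libraries Hyou1 did, 0.975, followed by Pdia4 with 0.910.

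Some libraries stood apart. Experiment library 43 (1515364 counts, 3949 genes) had counts for 2 of the 10 genes, Calr at 7.26 CPM and Xbp1 at 640 CPM. Hspa5, Hsp90b1 and Canx were at 0 there, which allows up to 1.98 CPM each at a floor of 3 counts. Its dopaminergic markers summed to 23204 CPM, above the overall median, and Atf4 stood at 816 CPM, the highest of any library. Absences were not limited to the chaperones: of 561 genes with at least the level of Hsp90b1, 7.84% were at 0 in it, against a median of 0.535% in experiment libraries. Without it the median log2 ratio of the 10 genes was -0.27. Experiment library 27 had Hspa5 at 31.2 CPM, glial markers at 21481 CPM and dopaminergic markers at 937 CPM. Control library 7 had Hspa5 at 2.88 CPM with dopaminergic markers at 3759 CPM. At the other end, experiment library 46 had the highest sum of the 10 genes, 4466 CPM, with Hspa5 at 1936 and Xbp1 at 663 CPM. Xbp1 was at 0 in experiment libraries 3, 4 and 5 and in control library 30.

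Whether the 10 genes moved together from neuron to neuron was described over the 94 thinned libraries, with group and title set removed by centring. Their 45 pairs had a median Spearman rho of 0.19 (range -0.07 to 0.42), and 21 pairs (46.7%) exceeded 0.2. Over all pairs of expressed genes the median was 0.03 and 7.04% exceeded 0.2. The strongest pairs were Pdia3 with Pdia6 (rho 0.42, Pearson r 0.50), Calr with Pdia6 (0.39) and Hsp90b1 with Pdia3 (0.35). Xbp1 had a median rho of 0.02 with the 9 chaperones (-0.07 to 0.20), against 0.21 among chaperone pairs, and Hyou1 a median of 0.08 with the other 9 genes. The median of Xbp1 differed in sign between the groups, which was not tested. In the 60 control libraries 0 of its 9 values were below 0 (median 0.11, range 0.07 to 0.30), beside a median of 0.17 among chaperone pairs. In the 34 experiment libraries 6 of 9 were below 0 (median -0.03, range -0.32 to 0.33), beside 0.24. These points share library preparation and the number of genes detected, which had a rho of 0.34 with the mean level of the 10 genes, so they are given without a p-value.

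**Figure D3:**
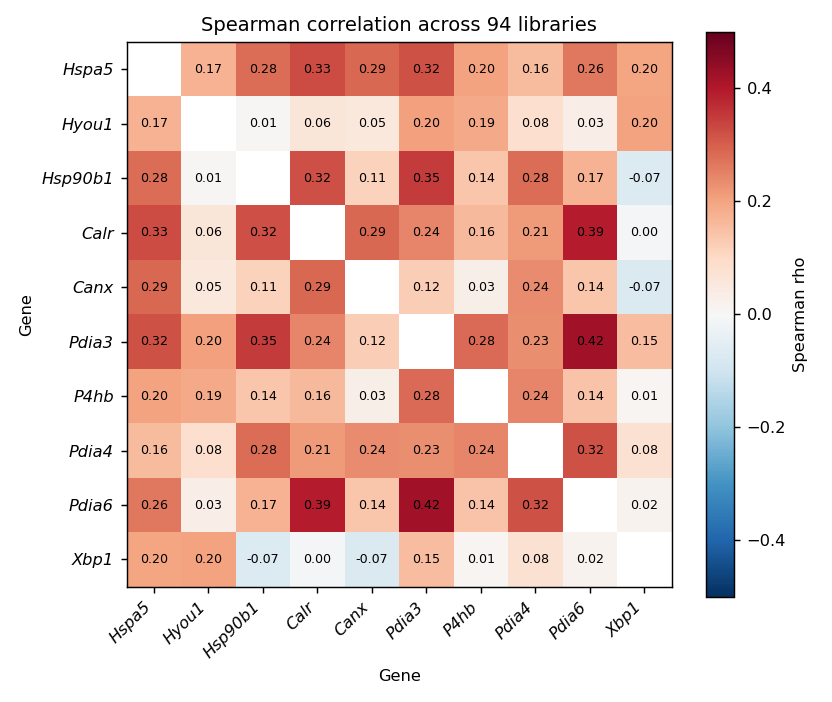
Spearman rho of log2(CPM + 1) for each pair of the 10 genes over 94 thinned libraries, centred within group and title set, with red above 0 and blue below. Pdia3 and Pdia6 form the highest pair (0.42), and the row of Xbp1 is pale, its highest value being 0.20.

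Against the mean of the other 9 genes, rho was 0.46 for Pdia3, 0.38 for Hspa5, 0.37 for Pdia6 and 0.36 for Calr and Hsp90b1. It was 0.35 for Pdia4, 0.30 for P4hb and 0.23 for Hyou1 and Canx. Xbp1 had 0.09, beside a median of 0.08 over all expressed genes. Among genes outside the 10, those most like their mean level included Atp6v0a1 (rho 0.54), a subunit of the vacuolar proton pump, and Arl6ip5 (0.53). Also among them were Slc18a2 (0.51), the vesicular monoamine transporter, Gaa (0.50), lysosomal acid glucosidase, and Tmem130 (0.49). Acss2, Tmem179, Chga and Slc30a5 followed at 0.47 each, where Chga is a secretory granule protein and Slc30a5 a zinc transporter. Of the dopaminergic markers, 9 of 11 exceeded 0.2, beside 18.1% of all expressed genes. The summed ATF4 branch had a rho of -0.05 (r 0.01) with the 10 genes. Atf4 itself had a rho of -0.15, Ddit3 of 0.14 and Psat1 of -0.20. With Xbp1 alone, rho was 0.34 for Ddit3, 0.01 for Atf4 and 0.06 for Psat1, beside 0.40 for Th, a dopaminergic marker.

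**Figure D4:**
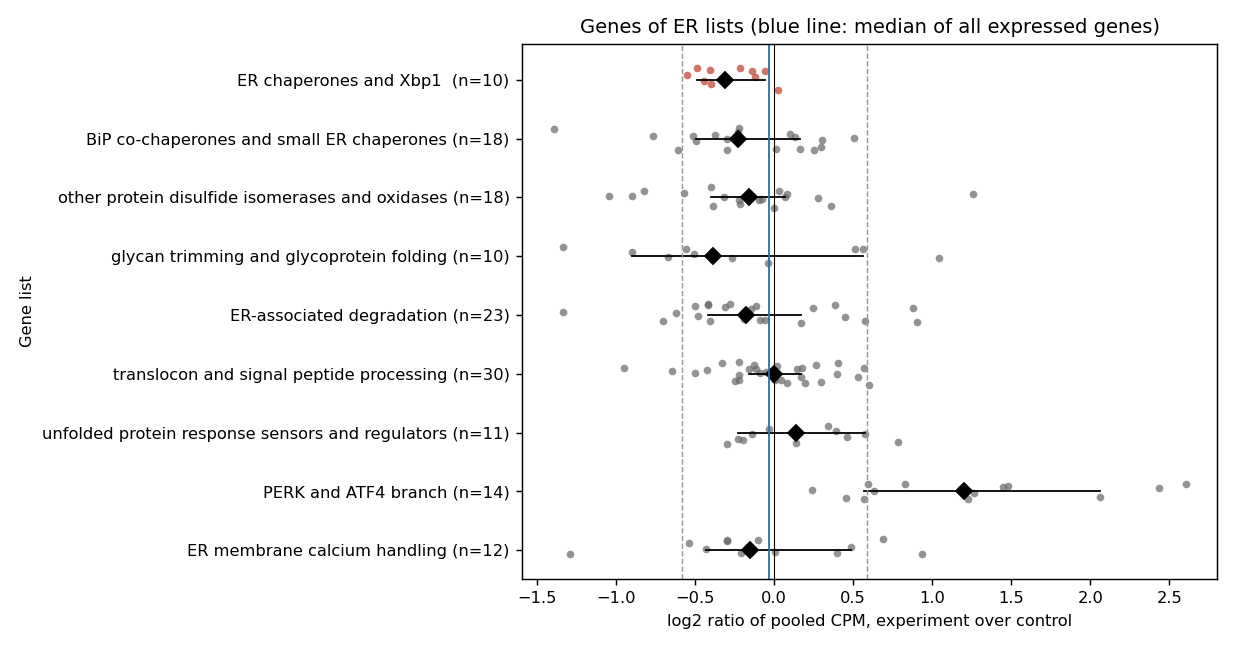
Log2 ratio of pooled CPM, experiment over control, for the expressed genes of 9 ER lists, with diamonds at medians, lines for the order-statistic interval over genes, a blue line at the median of all expressed genes (-0.03) and dashed lines at 1.5-fold. The 10 genes (red) lie between -0.55 and 0.03, and the PERK and ATF4 branch has a median of 1.20.

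The rest of the ER machinery was read from lists chosen by function, with the rule of size of 1.5-fold by both weightings. By this rule 7.77% of all expressed genes were higher and 11% lower, and the counts of each list stand beside these shares. Of 18 expressed BiP co-chaperones and small ER chaperones, 0 were higher and 3 lower, with a median log2 ratio of -0.23 (-0.50 to 0.17). The 3 were Creld2 (0.381-fold), Dnajc3 (0.657-fold), the BiP co-chaperone p58IPK, and Dnajc1 (0.588-fold), while Cnpy2 stood at 1.42-fold below the rule. Dnajc1 stood at 9.48 CPM in experiment and 16.1 CPM in control libraries. It thus met the minimum of 10 CPM through the control group alone, which favours a lower value. Of 18 other disulfide isomerases and oxidases, 0 were higher and 2 lower, Txndc5 (0.536-fold) and Erp44 (0.565-fold), which retrieves clients from the early Golgi. Txndc11 (0.486-fold) and Selm (0.673-fold) did not pass by both weightings, and the list's median was -0.16 (-0.40 to 0.07). Thus the closest relatives of the 10 genes had lower medians as well, both with intervals over genes that reach above 0.

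Of 10 expressed genes for glycan trimming and glycoprotein folding, 1 was higher, Mogs, glucosidase I (2.06-fold), and 1 lower, Clgn, a calnexin relative (0.397-fold). Uggt2 (1.42-fold) and Lman2 (0.678-fold) did not pass, and the median was -0.39 (-0.90 to 0.56). In ER-associated degradation, which sends misfolded proteins to the proteasome, 2 of 23 genes were higher, Ube2g2 (1.87-fold) and Herpud2 (1.84-fold), and 2 lower, Edem2 (0.396-fold) and Edem3 (0.650-fold). Edem2 had a count in 9 of 38 experiment libraries, so it counted as expressed through the control group alone (39 of 66), which favours a lower value. Edem2 and Edem3 encode mannosidase-like proteins that mark glycoproteins for disposal. The median of that list was -0.18 (-0.42 to 0.17). The translocon and signal peptide processing list, 30 genes, had 0 higher and 1 lower, Spcs3 (0.519-fold), a signal peptidase subunit. Its other named genes were Sec61a1 (1.52-fold pooled), Srp68 (1.48-fold) and Sec11a (1.32-fold), which did not pass by both weightings, and the median was -0.00043 (-0.16 to 0.17). ER membrane calcium handling, 12 genes, had Orai2 (1.91-fold) and Itpr1 (1.61-fold) higher and Atp2a3 (0.408-fold), a calcium pump of the ER, lower. Atp2a3 likewise counted as expressed through the control group alone, with a count in 8 of 38 and 27 of 66 libraries. Stim1 stood at 1.40-fold, and the median was -0.16 (-0.43 to 0.48).

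The sensors and regulators of the unfolded protein response detect or relay the load of unfolded protein. Of 11 expressed genes, 1 was higher, Atf6 (1.72-fold), and 0 lower, with a median log2 ratio of 0.14 (-0.23 to 0.57), an interval that overlaps that of the 10 genes. The median was -0.21 on the log2(CPM + 1) scale. Atf6 had opposite signs in the title sets, 2.34 in set 1 and -0.46 in set 2 as log2 ratios, and experiment library 1 held 40.2% of the group's Atf6 counts. Creb3 (1.49-fold), Bax (1.37-fold) and Mbtps2 (1.31-fold), the protease that releases ATF6, did not pass.

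The PERK and ATF4 branch differed in the opposite direction. Of its 14 expressed genes, 11 (78.6%) were higher and 0 lower by the rule, against 7.77% and 11% of all expressed genes. All 14 had a ratio above 1 by both weightings, where 45.8% of all expressed genes were lower by both. Of 8270 genes that met the minimum of level and detection in each group, 3469 were higher by both. The median log2 ratio of the branch was 1.20 (0.57 to 2.06). The largest ratios were those of Psat1 (6.08-fold) and Phgdh (5.41-fold), enzymes of serine synthesis, Slc7a5 (4.17-fold), an amino acid transporter, and Chac1 (2.79-fold), which degrades glutathione. Ddit3, or CHOP, stood at 188 CPM against 78.2 CPM, with 29 of 38 experiment libraries above the control median. Atf4 stood at 178 CPM against 118 CPM, but with opposite signs in the title sets, -0.42 in set 1 and 1.25 in set 2, and experiment library 43 held 17.3% of the group's Atf4 counts. The branch's median was 0.56 in title set 1, -0.16 in its block 1 and 1.42 in title set 2. Astrocyte markers, higher in experiment libraries as given above, had a median log2 ratio of 1.51, and their part in these values was not tested. Without the 25% of libraries highest in glial markers, the branch's median was 1.21.

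**Figure D5:**
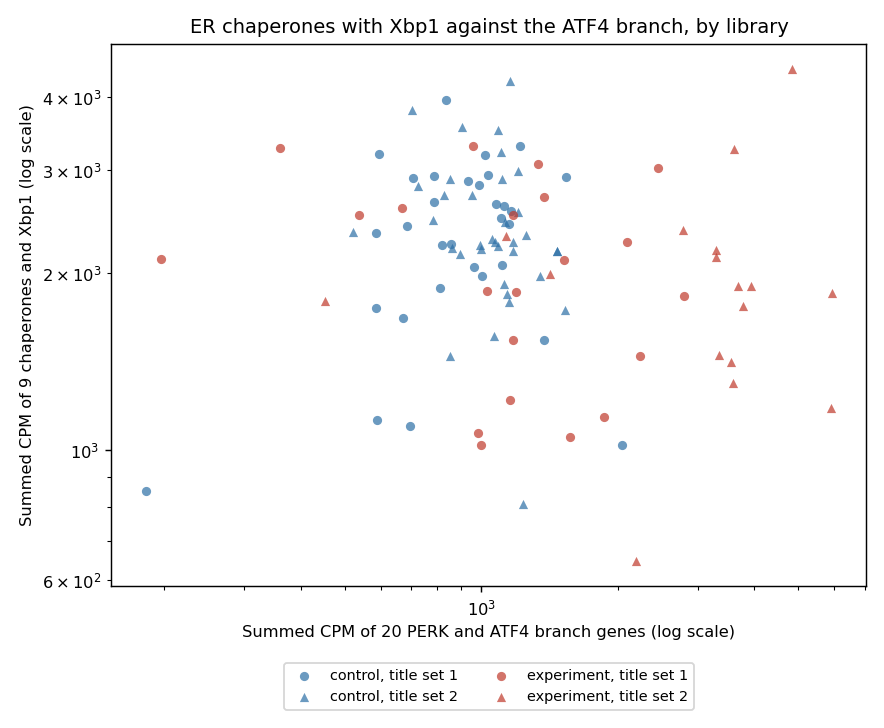
Summed CPM of the 10 genes against summed CPM of 20 PERK and ATF4 branch genes, 1 point per library on log axes, with experiment in red, control in blue, circles for title set 1 and triangles for title set 2. Experiment libraries of title set 2 lie to the right (median 3554 CPM, control 1091 CPM) without lying higher on the vertical axis.

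Over all libraries and in each title set, the summed medians of the 10 genes and of the ATF4 branch lay on opposite sides of control, while in title block 1 both lay above it. The summed ATF4 branch ranged from 197 to 5935 CPM with a median of 1715 in experiment libraries and from 182 to 2042 CPM with a median of 1027 in control libraries. In title set 2, 14 of 17 experiment libraries exceeded the highest control library of that set. In the same libraries the summed level of the 10 genes had a median of 1905 CPM, against 2262 CPM in controls of that set, and 13 of 17 lay below that control median. In title set 1 the ATF4 branch stood at 1177 CPM against 934 CPM, and the 10 genes at 2108 CPM against 2426 CPM. In its block 1 (7 and 10 libraries) the ATF4 branch stood at 982 CPM against 895 CPM, and the 10 genes at 2584 CPM against 2293 CPM.

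Genes that hold the ER stress response element were then grouped, a choice made after the values of the 10 genes had been seen. Of 35 genes with a match, 28 were in the count table, 5 of them among the 10 genes. Since the filter on low levels can be passed through 1 group, the 23 others were counted without it. Of these, 14 had 1 count or more in each group, and 12 were lower and 1 higher in experiment libraries by both weightings, where 43.8% of all genes with a count in each group were lower. The 14 include the related Xlr3a, Xlr3b and Xlr3c, all on chromosome X, and both Creld2 and Alg12, so they are not separate observations. A minimum of 1 count also admits genes whose ratios rest on few counts. The 7 that met the level and detection minimum in each group were Adcy3, Creld2, Dnajc3, Ero1lb, Hnrnpa3, Syvn1 and Zfp57. All 7 were lower by both weightings, beside 44% of all genes that met it, but Ero1lb (-5.21 and 1.55) and Hnrnpa3 (-0.49 and 0.23) had opposite signs in title sets 1 and 2. By pooled CPM, 5 of the 7 were lower in title set 2 and 6 in block 1, and with libraries compared by median CPM 2 were, where many medians are 0. Creld2 (10.4 against 27.3 CPM), Adcy3 (15.9 against 29.7 CPM) and Dnajc3 (51.7 against 78.6 CPM) passed the rule of size. Creld2 shares its element with Alg12. Among the 10 genes, the 5 with the element had a median log2 ratio of -0.40 (-0.55 to -0.06) and the 4 without it -0.17 (-0.44 to 0.03), ranges that overlap.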

How the data were processed

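Single neurons of the substantia nigra were sampled by patch pipette and their RNA was amplified with Smart-seq2, and HyperPlus libraries were made from it, per the labels' protocols. As deposited by the authors, the data are 1 table of read counts per gene symbol for 104 libraries (38 experiment, 66 control). The submitters' processing notes list STAR 2.5.3a, featureCounts 1.5.3 and mm10. Neither the labels nor the file header give the gene annotation, the strandedness or the handling of multi-gene reads. The 92 ERCC rows were kept out of totals. Of 5356 library pairs, 0 had identical counts.

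CPM, ratios and order statistics were computed with Python 3.11.15, numpy 2.4.6, pandas 2.3.3 and scipy 1.17.1. Only the ratios by both weightings, the rule of size and the rank correlation were tested on simulated data. A group sum under 3 counts was raised to 3 for a ratio. TMM factors (edgeR 4.0.16) and poscounts size factors (DESeq2 1.42.0, R 4.3.3) served as alternatives only, as did title sets and blocks, thinning, the log2(CPM + 1) scale, other centres and subsets of libraries. No test was run, since the labels name no animal and each group counts as 1 sample. Correlations used libraries thinned to 400000 counts, without 4 experiment and 6 control libraries. Library totals set the precision: genes of a few CPM rest on a few counts in each library.

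The 10 genes and all lists were chosen with earlier results of these data known. Named are all 10 genes, in each ER list up to 4 expressed genes with the same sign by both weightings, ranked by the smaller of the 2 log2 ratios, the 10 genes most like the mean level, and Atf4, Ddit3 and Psat1. Library 43, library 46 for Pdia4, libraries 38 and 53 and those low in dopaminergic markers were singled out after seeing the data, as was the count of element genes without the filter. Positions are from GENCODE M21 on GRCm38, the assembly of mm10, and promoter sequences from RefSeq (GRCm38.p6), with 9 of the 10 genes matched. Of the genes most like the mean of the 10, 1 is not reported here.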

Additional observations from a re-analysis of the deposited data

How the results depend on the processing

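No paired analysis was possible because the results come from no test and the title numbers tie no library of one group to a library of the other. The count of the 10 genes higher by 1.5-fold stayed at 0 in every alternative run, block 1 included, where P4hb (0.65) and Pdia4 (0.60) passed 1.5-fold as pooled log2 ratios but not with equal weights (0.45 and 0.07). The count lower by 1.5-fold was 0 with all libraries pooled, 1 with equal weights, 1 in title set 1, 2 with TMM factors, 2 in title set 2, 2 without the libraries highest in glial markers, 2 at low ERCC share, 3 by median library CPM, 3 among libraries with more genes detected, 4 in title block 2 and 7 on the log2(CPM + 1) scale, where the median of all expressed genes is itself -0.38. The share of all expressed genes lower by 1.5-fold was larger as well in these alternatives, beside 11% by both weightings over all libraries. Equal weights, TMM factors, median library CPM and the log2(CPM + 1) scale each use 1 measure. By equal weights alone the share cannot be smaller than by both weightings, so its rise there is fixed in advance. The share was 24.9% by median library CPM, 15.8% with more genes detected, 18.1% in block 2 and 36.4% on the log scale. Elsewhere it was 13.5% with equal weights, 16.6% in title set 1, 14.5% with TMM factors and 17.5% in title set 2. With high-glial libraries left out it was 15.4%, and at low ERCC share 17.1%. The median log2 ratio of the 10 genes was -0.75 on the log2(CPM + 1) scale, 0.039 in block 1 and -0.58 in block 2. It was -0.55 at low ERCC share and -0.55 with more genes detected. Other disulfide isomerases had -0.62 on the log scale, -0.59 by median CPM, -0.63 at low ERCC share and -0.47 with more genes detected. Glycan trimming had -1.23 on the log scale and -1.61 by median CPM. ER-associated degradation had -0.65 on the log scale and -0.43 at low ERCC share, and the translocon list -0.40 on the log scale and -0.27 in block 2. Sensors had 0.77 in block 1, -0.22 by median CPM, -0.29 at low ERCC share and -0.34 with more genes detected, calcium handling -0.44 in title set 1 and -0.52 at low ERCC share, and BiP co-chaperones -0.69 at low ERCC share. The PERK and ATF4 branch had 0.56 in title set 1 and -0.16 in block 1. The median correlation between the 10 genes was 0.26 by Pearson's r. The cause of these shifts was not tested. Hyou1, Pdia3 and Pdia6 had a ratio below 1 in all 19 alternatives, Xbp1 in 15 and P4hb in 11. With no filter on low counts, 17.8% of genes were higher and 19.8% lower by 1.5-fold, in place of 7.77% and 11%. Alternatives without control library 53, without experiment library 43 or without libraries low in dopaminergic markers were added after seeing the data and moved none of these medians out of its interval.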

Other observations

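Outside the genes named by rule, some targets that the ATF6 and IRE1 arms are known to raise were looked up after the list values had been seen. Herpud1, a membrane protein of ER-associated degradation, stood at 231 CPM in experiment and 177 CPM in control libraries, with log2 ratios of 0.10 in title set 1 and 0.62 in title set 2. Dnajb9, a BiP co-chaperone, stood at 125 and 111 CPM, with -0.09 and 0.40. Manf, a secreted ER protein, stood at 46.9 and 43.7 CPM, with -0.33 and 0.49. Sdf2l1 stood at 21.8 and 17.7 CPM by pooled counts, but its equally weighted ratio was 0.597. Dnajb11, which brings clients to BiP, stood lower, at 70.1 and 98.8 CPM, with -0.75 and -0.27. Sel1l, of ER-associated degradation, stood at 114 and 96.3 CPM, but its equally weighted ratio was 0.963. The genes looked up here therefore did not share 1 direction, and none differed by 1.5-fold by both weightings. From neuron to neuron, rho with Xbp1 was 0.31 for Manf, 0.26 for Dnajb9, 0.11 for Herpud1, 0.09 for Dnajb11, 0.02 for Sel1l and -0.04 for Sdf2l1. Of the genes named by rule above, Creld2 (0.381-fold) and Dnajc3 (0.657-fold), which hold the ER stress response element, were lower by the rule of size.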
